A study of Mus musculus with 21 samples.

Results

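Costimulatory and checkpoint ligands are the surface and secreted proteins with which a macrophage tunes the T cells it meets. The set described here was 8 genes, taken as the rows of the count table that carry the symbols Cd80, Cd86, Icosl, Cd40, Cd274, Pdcd1lg2, Cd276 and Lgals9. All 8 were found among the 47069 genes of the table, and all 8 passed the filter on low counts that left 14473 genes for testing. Their levels were followed in 21 RNA sequencing libraries of macrophages grown from mouse bone marrow, with 3 libraries to each of 7 groups, holding between 32.6 and 48.7 M (mega) counted reads.

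Every culture came from a C57BL/6 background and was grown for 5 days with conditioned medium that supplied M-CSF, the macrophage growth factor. Cytokine, where given, was present for 36 h. Wild-type (WT) cells received IL-33, IL-4 or no cytokine, while cells labelled ST2-/- and cells labelled Cx3cr1CRExGata3fl/fl received IL-33 or no cytokine. ST2, the product of Il1rl1, is the receptor chain for IL-33. The second label names Cre driven by the Cx3cr1 promoter, which is active in the monocyte and macrophage lineage, together with floxed alleles of the transcription factor gene Gata3. These cells are called Gata3fl/fl labelled below. Age, and whether libraries of a group came from separate animals, were not stated, so p-values here reflect variation among these libraries, part of which may be technical.

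Neither deletion could be checked from counts summed over a whole gene. Il1rl1 stood at 15.8 ± 2.51 CPM (read counts scaled to library size) in ST2-/- labelled cells with IL-33 and 15.7 ± 1.14 CPM in WT cells with IL-33 (SD, n = 3 each). Gata3 was near the limit of detection everywhere, with 37 counts summed over the Gata3fl/fl labelled IL-33 libraries and 22 counts over the WT IL-33 libraries. Xist, the RNA that coats the silent X chromosome in females, averaged 342 CPM in Gata3fl/fl labelled cells with IL-33 and 0.00881 CPM in WT cells with IL-33. The Y-linked gene Ddx3y averaged 0.00953 CPM in the first and 81.9 CPM in the second. Genotype and sex therefore cannot be told apart in any comparison of Gata3fl/fl labelled with WT cells.

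A T cell needs a signal through its antigen receptor and a second, costimulatory signal to become fully active. Cd80 and Cd86 encode B7-1 and B7-2, which engage CD28 to activate and CTLA-4 to restrain. Icosl encodes the ligand of the costimulatory receptor ICOS, and Cd40 the TNF receptor family protein through which T cells license the macrophage. Cd274 and Pdcd1lg2 encode PD-L1 and PD-L2, the ligands of the inhibitory receptor PD-1. Cd276 encodes B7-H3, and Lgals9 encodes galectin-9, a lectin for which TIM-3 is one described receptor.

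The PD-1 ligand genes are neighbours on mouse chromosome 19 in GRCm38. Cd274 (ENSMUSG00000016496) spans chr19:29367455-29388095 and Pdcd1lg2 (ENSMUSG00000016498) spans chr19:29410919-29471161, both on the plus strand and 22.8 kb apart. They are shown first because they lie side by side and yet had different orders of level under the 2 cytokines. The windows below are RefSeq promoters of GRCm38.p6, each from 250 bases before the annotated start to 50 bases from it. Capitals mark matches to 2 searched motifs, a STAT6-type match in Pdcd1lg2 (TTC and GAA separated by any 4 bases) and the GATA-type letters AGATAA in both genes.
Pdcd1lg2, chr19:29410669-29410968, plus strand: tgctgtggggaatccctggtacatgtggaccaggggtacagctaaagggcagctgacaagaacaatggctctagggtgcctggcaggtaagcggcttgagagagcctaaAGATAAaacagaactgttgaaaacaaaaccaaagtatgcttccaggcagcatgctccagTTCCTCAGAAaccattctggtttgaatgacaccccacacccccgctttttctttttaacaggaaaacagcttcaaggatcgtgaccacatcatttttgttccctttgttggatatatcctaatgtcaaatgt
Cd274, chr19:29367188-29367487, plus strand: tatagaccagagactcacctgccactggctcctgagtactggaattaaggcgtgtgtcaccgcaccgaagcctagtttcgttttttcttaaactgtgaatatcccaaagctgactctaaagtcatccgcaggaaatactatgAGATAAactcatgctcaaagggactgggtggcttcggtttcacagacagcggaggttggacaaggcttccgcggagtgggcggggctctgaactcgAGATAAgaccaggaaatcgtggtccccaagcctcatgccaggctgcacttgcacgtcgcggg
In Pdcd1lg2 the STAT6-type match began 82 bases and the GATA-type match 141 bases before the start. In Cd274 the GATA-type matches began 108 and 12 bases before the start. Of 32851 mouse promoter windows of the same length, 6.95% held a STAT6-type match and 11.2% a GATA-type match on either strand.

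Lgals9 (ENSMUSG00000001123, chr11:78962974-78984946, minus strand) is shown as well, because it was the member with matches to the IRF-type motif, GAAA and GAAA separated by any 2 bases. The capitals mark these, which read in the reverse orientation.
Lgals9, chr11:78984875-78985174, minus strand: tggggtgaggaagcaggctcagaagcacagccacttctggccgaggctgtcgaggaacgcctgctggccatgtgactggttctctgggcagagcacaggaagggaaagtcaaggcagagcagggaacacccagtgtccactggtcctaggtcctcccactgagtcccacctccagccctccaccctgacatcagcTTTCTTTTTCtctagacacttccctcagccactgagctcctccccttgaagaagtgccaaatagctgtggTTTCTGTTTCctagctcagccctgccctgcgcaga
They began 55 bases before and 16 bases after the start, and 3.44% of all windows held such a match. The windows of Cd80, Icosl and Cd276 held none of the 5 motifs searched, which also included a STAT-type motif (TTCNNNGAA, in 8.3% of windows) and an NF-kB-type motif (GGG and TTTCC separated by any 2 bases, in 1.63%). The windows of Cd80 (chr16:38458683-38458982) and Cd276 (chr9:58554984-58555283) lie inside the gene spans given below. Bases before those spans were not searched for these genes. Promoter windows were matched for 6 of the 8 genes, not for Cd86 and Cd40. A match describes letters in a window and says nothing of binding.

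The other members lie on separate chromosomes or far apart. Cd80 (ENSMUSG00000075122, chr16:38455561-38496335) and Cd86 (ENSMUSG00000022901, chr16:36603869-36666081) share chromosome 16. Icosl (ENSMUSG00000000732) spans chr10:78069302-78083913, Cd40 (ENSMUSG00000017652) chr2:165055627-165072948 and Cd276 (ENSMUSG00000035914) chr9:58524298-58555437. No 100-base stretch of any member's transcripts occurred in the transcripts of another gene. Of the exon bases of Cd274, 511 are overlapped by an antisense gene, and of those of Cd276, 416 by a gene on the opposite strand. Whether counting used strand was not given in the sources used here, so reads in these overlaps cannot be assigned.

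Per kilobase of exon, galectin-9 transcripts were the most abundant of the set in all 7 groups and PD-L1 transcripts came next. In untreated WT cells the levels per length were 54.7 ± 9.43 CPM per kb for Lgals9, 11.5 ± 0.305 for Cd274, 4.79 ± 0.308 for Cd40, 4.67 ± 0.431 for Icosl and 3.49 ± 0.340 for Cd86 (SD, n = 3). Cd80 at 1.57 ± 0.0788, Cd276 at 0.995 ± 0.236 and Pdcd1lg2 at 0.174 ± 0.148 CPM per kb made up the low end. With IL-4 Pdcd1lg2 stood at 16.5 ± 1.01 CPM per kb, behind only Lgals9 at 38.9 ± 2.49 and Cd274 at 21.4 ± 1.49, while Icosl was last at 0.761 ± 0.116 CPM per kb. With IL-33 Pdcd1lg2 reached 2.66 ± 0.895 CPM per kb in WT cells, between Icosl at 3.92 ± 0.396 and Cd80 at 1.78 ± 0.121.

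**Figure D1:**
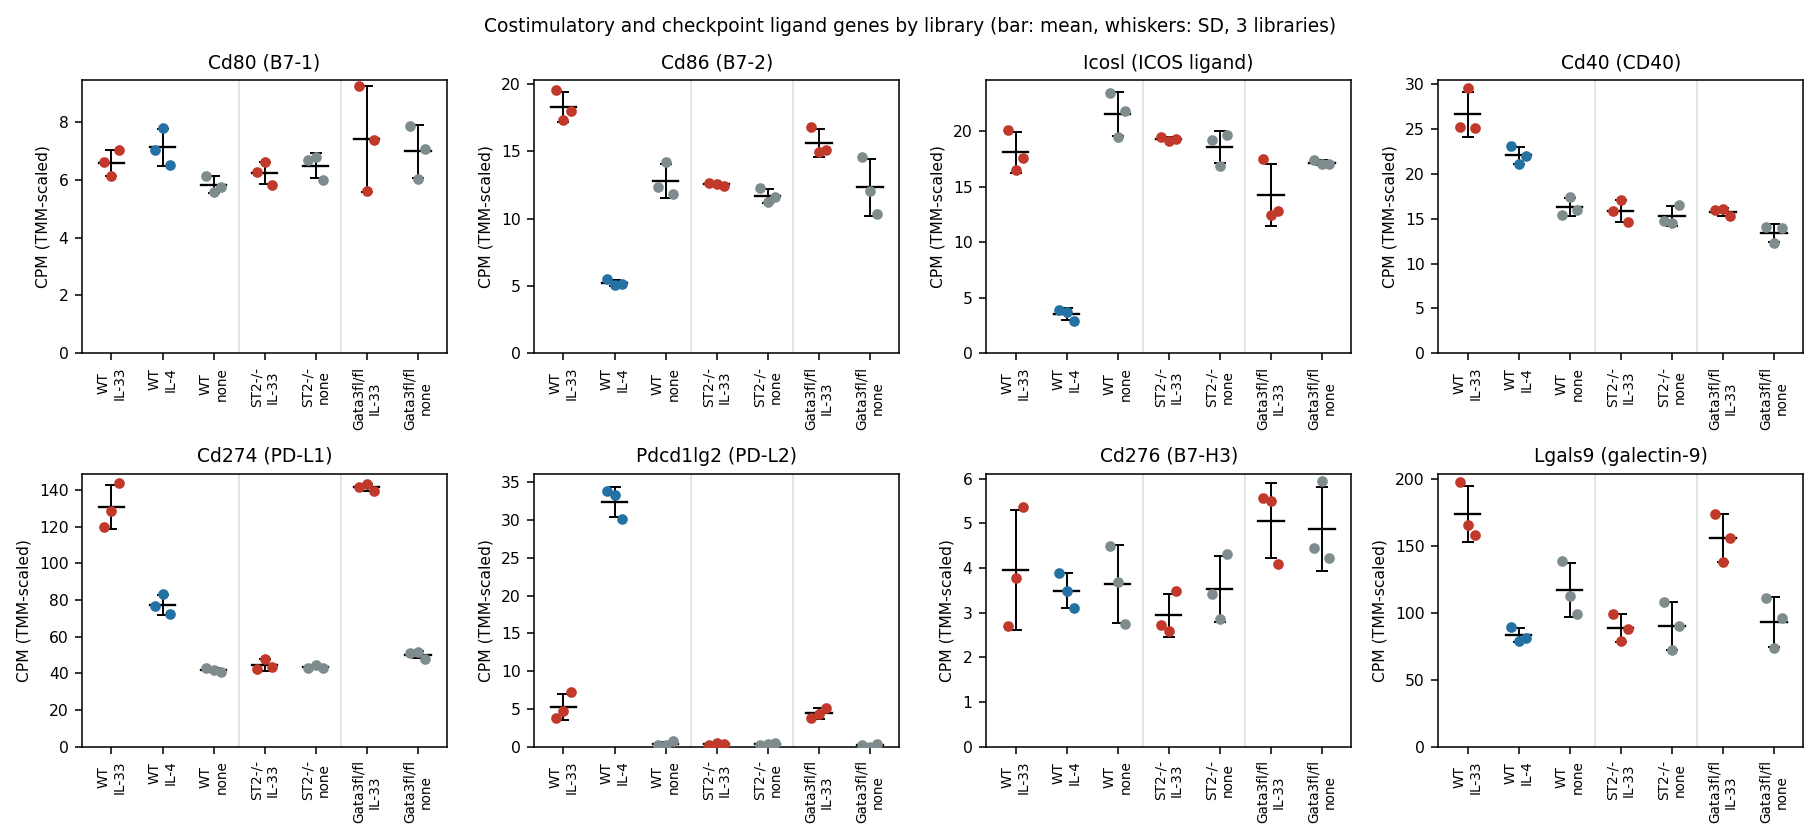
Level of each of the 8 genes in each library, in CPM scaled by TMM (vertical axes, from 0), by genotype label and cytokine; red marks IL-33, blue IL-4 and grey no cytokine, bars are means and whiskers SD of 3 libraries. Cd274 with IL-33 and Pdcd1lg2 and Icosl with IL-4 stand clear of the untreated libraries, while Cd274 lies between 42.1 and 48.0 CPM in the ST2-/- labelled libraries with and without IL-33.

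IL-33 raised PD-L1 and PD-L2 transcripts most among the set in WT cells, with smaller rises of CD40, galectin-9 and B7-2. Of the 8 genes, 5 rose and 0 fell with IL-33 against no cytokine, where 35.4% of all tested genes were called in either direction (edgeR quasi-likelihood test, adjusted p under 0.05). The median log2 change of the 8 was 0.55, and that of all 14473 tested genes was -0.0009.

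Cd274 had 119.6, 129 and 144 CPM in the 3 IL-33 libraries, against 43.0, 41.6 and 40.9 CPM in the untreated ones. The groups stood well apart, and the change was 1.64 ± 0.06 on the log2 scale, or 3.12-fold (SE, adjusted p = 2.3e-14). Among all tested genes Cd274 ranked 11 by p in this comparison. Pdcd1lg2 had 143, 192 and 255 counts with IL-33, against 6, 7 and 27 counts without. All IL-33 libraries were higher than all untreated ones, by 3.90 ± 0.39 on the log2 scale, or 14.9-fold (adjusted p = 5.4e-08). Untreated library 3 held most of the untreated counts, and without it the log2 change was 4.88.

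Cd40 reached 25.2, 29.6 and 25.2 CPM with IL-33, against 15.5, 17.5 and 16.0 CPM without cytokine, a log2 change of 0.71 ± 0.08 (adjusted p = 5.7e-07). Cd86 had 19.6, 17.3 and 18.0 CPM with IL-33, against 12.4, 14.2 and 11.8 CPM without, a log2 change of 0.52 ± 0.10 (adjusted p = 3.1e-04). Lgals9 had 198, 166 and 158 CPM with IL-33, against 139, 112 and 99.4 CPM without, a log2 change of 0.57 ± 0.15 (adjusted p = 0.00339). In all of these the IL-33 and untreated libraries did not overlap.

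The remaining members did not pass the test with IL-33. Icosl had 20.1, 16.6 and 17.6 CPM with IL-33, against 23.4, 19.5 and 21.8 CPM without, and the groups overlapped (log2 change -0.25, adjusted p = 0.0898). This call depended on the processing: the adjusted p was 0.0388 under upper-quartile scaling, 0.0384 without IL-33 library 1 and 0.0451 without untreated library 2. Cd80 differed by 0.18 on the log2 scale (95% interval -0.12 to 0.48) and Cd276 by 0.12 (-0.36 to 0.60).

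IL-4 gave a different profile, with PD-L2 transcripts far higher and those of ICOS ligand and B7-2 lower. Of the 8 genes, 3 rose and 3 fell with IL-4 against no cytokine in WT cells, where 47.6% of all tested genes were called. Both cytokines were set against the same untreated WT libraries, so the responses share their controls. The median log2 change of the 8 was 0.11 with IL-4. The largest change was that of Pdcd1lg2, with 1070, 1377 and 1359 counts with IL-4, against the 6, 7 and 27 counts of untreated libraries. The difference was 6.54 ± 0.38 on the log2 scale, or 92.8-fold (adjusted p = 2.4e-12). Without untreated library 3 it was 7.51 on the log2 scale.

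Icosl had 3.92, 3.73 and 2.91 CPM with IL-4, against 23.4, 19.5 and 21.8 CPM without cytokine. That was 6.17-fold lower (log2 change -2.63 ± 0.13, adjusted p = 2.1e-13), with no overlap between groups. Cd86 had 5.50, 5.08 and 5.13 CPM with IL-4, against 12.4, 14.2 and 11.8 CPM without, 2.45-fold lower (log2 change -1.29 ± 0.11, adjusted p = 1.5e-09). Its partner in CD28 binding, Cd80, had 7.05, 7.81 and 6.53 CPM with IL-4, against 6.15, 5.58 and 5.76 CPM without. Every IL-4 library of Cd80 was above every untreated one, yet the change of 0.29 ± 0.14 on the log2 scale did not pass the test (adjusted p = 0.101).

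Cd274 had 76.5, 83.2 and 72.5 CPM with IL-4, against 43.0, 41.6 and 40.9 CPM without cytokine, 1.85-fold higher (log2 change 0.89 ± 0.06, adjusted p = 1.2e-10). Cd40 had 23.1, 21.1 and 22.0 CPM with IL-4, against 15.5, 17.5 and 16.0 CPM without (0.44 ± 0.08, adjusted p = 1.8e-04). Neither gene's groups overlapped. Lgals9 fell to 89.2, 79.0 and 81.4 CPM with IL-4, against 139, 112 and 99.4 CPM without (log2 change -0.49 ± 0.15, adjusted p = 0.00808). Without untreated library 1, the highest of its group, the adjusted p for Lgals9 was 0.0600. Cd276 differed by -0.06 on the log2 scale (95% interval -0.54 to 0.42), its libraries overlapping.

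**Figure D2:**
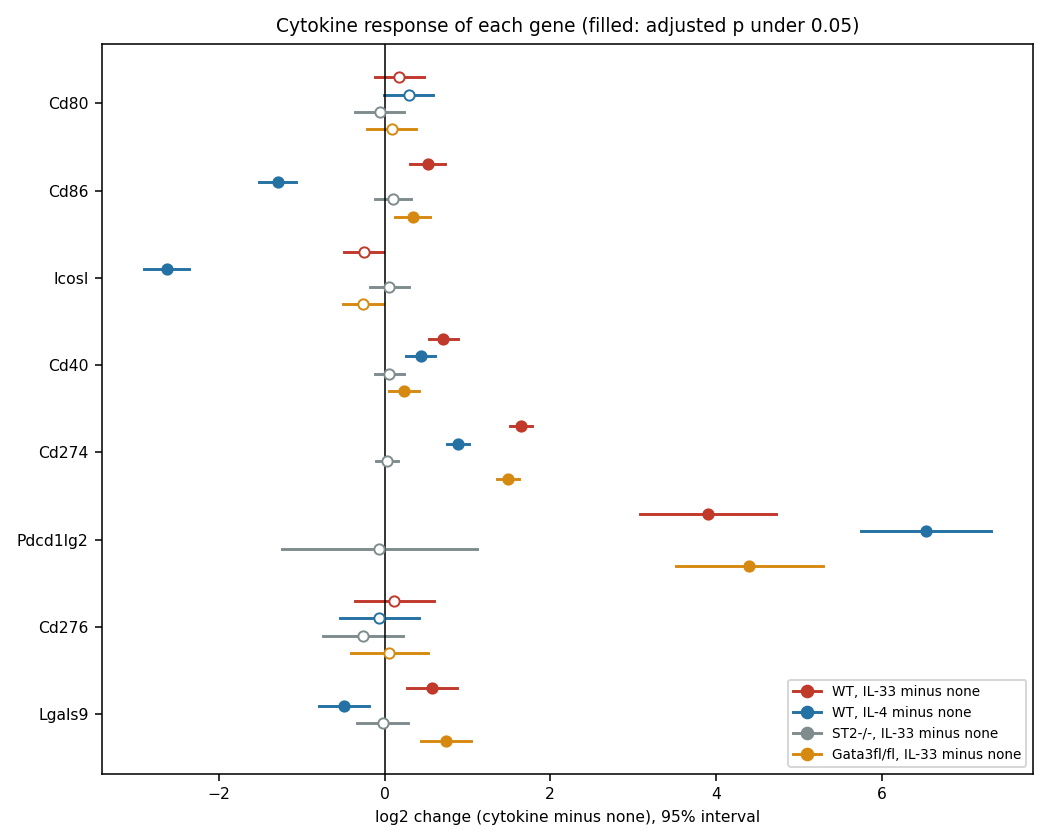
Log2 change with cytokine against no cytokine for each gene (points, with 95% intervals), in WT cells with IL-33 (red) or IL-4 (blue) and in ST2-/- labelled (grey) and Gata3fl/fl labelled (orange) cells with IL-33; filled points passed an adjusted p of 0.05. IL-4 lies to the left of 0 for Cd86, Icosl and Lgals9, where IL-33 lies to the right for Cd86 and Lgals9, and the grey points lie near 0.

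Set directly against each other in WT cells, IL-33 gave higher levels of 5 members and a lower level of 1 than IL-4 did, where 39.9% of all tested genes were called. Icosl was 5.18-fold higher with IL-33 than with IL-4 (log2 difference 2.37 ± 0.13, adjusted p = 1.4e-12) and Cd86 3.50-fold higher (1.81 ± 0.11, adjusted p = 6.1e-12). The same direction held for Lgals9 (1.07 ± 0.15, adjusted p = 3.2e-06) and Cd274 (0.75 ± 0.06, adjusted p = 1.4e-09). Pdcd1lg2 was 6.22-fold lower with IL-33 than with IL-4 (-2.64 ± 0.27, adjusted p = 4.7e-08). The gap in Cd40 was 0.27 ± 0.08 (adjusted p = 0.0109), and without IL-33 library 2 its adjusted p was 0.0856.

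The balance of the PD-1 ligands was read per length. PD-L2 counts per kb of exon were 7.28 ± 1.75% of PD-L1 counts per kb in WT cells with IL-33, 77.5 ± 3.89% with IL-4 and 1.52 ± 1.33% without cytokine (SD, n = 3 each). The 3 IL-4 libraries lay between 73.9 and 81.6%, and the 3 IL-33 libraries between 5.84 and 9.23%. Every untreated WT library was below the IL-33 range, the highest at 3.06%. In ST2-/- labelled cells the share was 1.34 ± 0.377% with IL-33 and 1.47 ± 0.491% without. In Gata3fl/fl labelled cells it was 5.74 ± 0.944% with IL-33 and 0.760 ± 0.684% without.

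**Figure D3:**
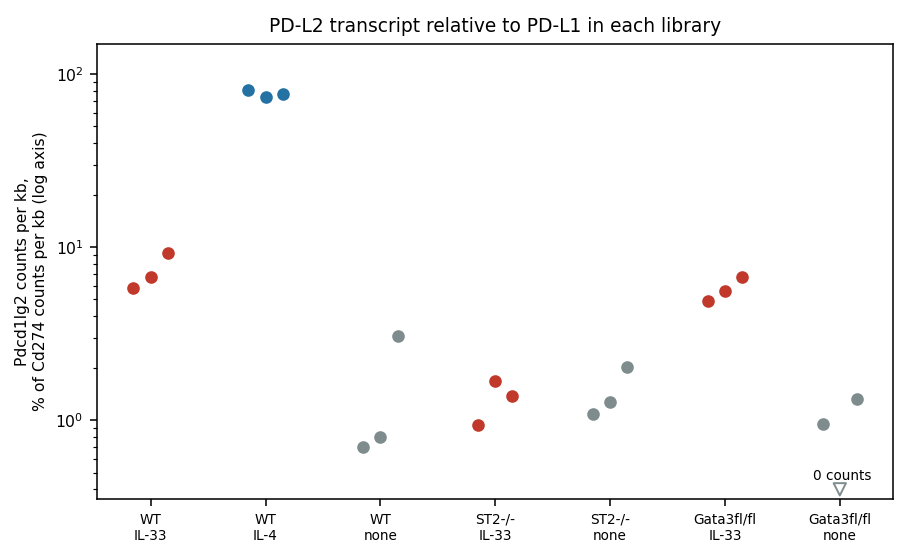
Pdcd1lg2 counts per kb of exon as a percentage of Cd274 counts per kb (vertical axis, log scale) in each library, by genotype label and cytokine; the open triangle at the lower edge is a Gata3fl/fl labelled untreated library with 0 counts of Pdcd1lg2. The IL-4 libraries sit between 73.9 and 81.6%, far above all others.

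Markers of the cell types in these cultures moved with cytokine as well. Macrophage markers (7 genes, Csf1r and Adgre1 among them) were present throughout. In WT cells they summed to 35900 to 39900 CPM with IL-33, 13800 to 15400 CPM with IL-4 and 27000 to 29900 CPM without cytokine. In every group most of this sum was Lyz2. In WT cells Lyz2 averaged 29650 CPM with IL-33, 9890 CPM with IL-4 and 21330 CPM without cytokine. Cd68 went the other way, at 1019, 1438 and 1308 CPM in the same order. Of the 7 genes, 4 rose and 1 fell with IL-33, and 2 rose and 5 fell with IL-4. Of all tested genes, 35.4% and 47.6% were called in these comparisons. The 8 dendritic cell markers summed to 128 to 210 CPM with IL-33, 831 to 1240 CPM with IL-4 and 48.7 to 96.2 CPM without. Nearly all of this was Itgax, which macrophages also express. Without it the 7 other markers summed to 11.6 to 14.8 CPM with IL-33, 6.73 to 8.64 CPM with IL-4 and 7.0 to 7.79 CPM without cytokine. This sum held opposite moves. Zbtb46 averaged 0.813 CPM with IL-33, 2.06 CPM with IL-4 and 0.152 CPM without cytokine, and Siglech 2.46, 1.68 and 3.23 CPM. Most of the rise of the sum with IL-33 lay in Ccr7 and Cd209a. Ccr7 averaged 4.45, 1.32 and 0.938 CPM in the same order, and Cd209a 3.12, 1.05 and 0.978 CPM. Of all 8 genes, 4 rose and 0 fell with IL-33, and 2 rose and 1 fell with IL-4. The shares called among all tested genes were 35.4% and 47.6%. Neutrophil markers (7 genes) summed to 43.3 to 47.1 CPM with IL-33, 13.7 to 15.3 CPM with IL-4 and 17.7 to 23.6 CPM without. In Gata3fl/fl labelled cells that sum was 56.1 to 80.6 CPM with IL-33 and 39.2 to 43.9 CPM without. Stromal markers summed in these cells to 0.135 to 1.06 CPM with IL-33 and 1.14 to 3.42 CPM without. Mast cell and basophil markers summed in them to 4.57 to 5.17 CPM with IL-33 and 1.03 to 2.41 CPM without. In ST2-/- labelled cells macrophage markers summed to 26800 to 29800 CPM with IL-33 and 27800 to 29000 CPM without, and in Gata3fl/fl labelled cells to 34100 to 34900 CPM with IL-33 and 24900 to 27400 CPM without. B cell markers (5 genes) were at or below 5.94 CPM in WT libraries and T and NK cell markers (7 genes) at or below 1.69 CPM. Stromal markers (4 genes) were at or below 0.760 CPM there. Mast cell and basophil markers (5 genes) summed to 1.32 to 2.54 CPM in WT cells with IL-33 and 0.492 to 0.856 CPM without cytokine. Of the 4 tested, 3 rose with IL-33 and 0 fell, where 35.4% of all tested genes were called. Counts were low, Ms4a2 having 38 summed over the WT IL-33 libraries and 3 over the untreated ones. In ST2-/- labelled cells the mast cell and basophil sum was 0.298 to 0.927 CPM with IL-33 and 0.486 to 0.743 CPM without. The part of these shifts in the ligand results was not tested, and in bulk RNA fewer cells with a transcript and less transcript per cell cannot be told apart.

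In ST2-/- labelled cells none of the 8 genes was called with IL-33 against no cytokine. In that comparison 0% of all tested genes were called by edgeR at an adjusted p under 0.05, DESeq2 and limma-voom also called 0, and 507 genes had an unadjusted edgeR p under 0.05. Cd274 had 42.1, 48.0 and 43.5 CPM with IL-33, against 42.9, 44.5 and 43.1 CPM without. The libraries overlapped, and the log2 change was 0.03 (95% interval -0.10 to 0.17). Pdcd1lg2 had 9, 19 and 12 counts with IL-33, against 11, 15 and 19 counts without, a log2 change of -0.06 whose interval of -1.24 to 1.11 is wide at this depth. Intervals for the other members included 0, Cd86 running from -0.11 to 0.32 and Cd40 from -0.12 to 0.23. Every IL-33 library of Cd86 was above every untreated one, while the libraries of the 7 other genes overlapped. The share of all tested genes whose libraries stood apart was not counted, here or in the other comparisons. Such separation therefore only describes the libraries.

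The response itself was then compared between genotypes. Of the 8 genes, 5 had a smaller IL-33 response in ST2-/- labelled than in WT cells (interaction test, 22.7% of all tested genes called). The difference in log2 response was -1.61 ± 0.09 for Cd274 (adjusted p = 4.4e-11), -3.96 ± 0.72 for Pdcd1lg2 (adjusted p = 2.8e-04) and -0.65 ± 0.12 for Cd40 (adjusted p = 2.9e-04). Without WT untreated library 3 that of Pdcd1lg2 was -4.94. For Lgals9 it was -0.60 ± 0.21 (adjusted p = 0.0398) and for Cd86 -0.42 ± 0.14 (adjusted p = 0.0414). These last 2 calls were narrow. The call of Cd86 held without WT IL-33 library 2 or WT untreated library 2 and was lost without any other library (adjusted p up to 0.117), without the filter (0.0633) and under upper-quartile scaling (0.0615). That of Lgals9 was lost under DESeq2 (adjusted p = 0.0609) and upper-quartile scaling (0.0513). It was also lost in 8 of 12 fits that left out 1 library (adjusted p up to 0.145). These were ST2-/- labelled IL-33 libraries 2 and 3, ST2-/- labelled untreated libraries 1 and 3, WT IL-33 libraries 1 and 2 and WT untreated libraries 2 and 3. Icosl (0.31), Cd276 (-0.38) and Cd80 (-0.24) did not pass the interaction test.

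With IL-33 present, 5 members were lower and 0 higher in ST2-/- labelled than in WT cells, where 37% of all tested genes were called. Cd274 was 2.93-fold lower (log2 difference -1.55 ± 0.06, adjusted p = 4.3e-14) and Pdcd1lg2 15.8-fold lower (-3.98 ± 0.39, adjusted p = 4.2e-08). Lgals9 differed by -0.97, Cd40 by -0.75 and Cd86 by -0.54 on the log2 scale, with adjusted p between 2.9e-07 and 1.8e-04. Cd276 (-0.43), Icosl (0.09) and Cd80 (-0.08) were not called, Cd276 passing only when 1 library, WT IL-33 library 1, was left out (adjusted p = 0.0395). Without cytokine, 0 members were called between ST2-/- labelled and WT cells, where 1.35% of all tested genes were. Lgals9 was the one with an unadjusted p under 0.05, at 108, 72.5 and 90.5 CPM in ST2-/- labelled cells and 139, 112 and 99.4 CPM in WT cells (log2 difference -0.37, adjusted p = 0.222).

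In Gata3fl/fl labelled cells IL-33 again raised PD-L1 and PD-L2 transcripts, with smaller rises of galectin-9, B7-2 and CD40. Of the 8 genes, 5 rose and 0 fell with IL-33 against no cytokine, where 33.4% of all tested genes were called. Cd274 had 142, 143 and 139 CPM with IL-33, against 51.1, 51.4 and 48.0 CPM without (log2 change 1.49 ± 0.06, adjusted p = 8.0e-14). Pdcd1lg2 had 139, 143 and 178 counts with IL-33, against 13, 0 and 14 counts without (4.40 ± 0.43, adjusted p = 3.5e-08). Neither gene's groups overlapped. Lgals9 had 174, 138 and 156 CPM with IL-33, against 111, 73.5 and 95.9 CPM without (0.74 ± 0.15, adjusted p = 3.7e-04). Icosl differed by -0.26 on the log2 scale (adjusted p = 0.0842), Cd80 by 0.09 and Cd276 by 0.06, none of them called. The adjusted p of Icosl was 0.00375 without IL-33 library 1, 0.0486 without the filter and 0.0359 under upper-quartile scaling.

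The rises of Cd86 and Cd40 in Gata3fl/fl labelled cells rested on narrower margins. Cd86 had 16.8, 14.9 and 15.1 CPM with IL-33, against 14.6, 12.0 and 10.4 CPM without (0.34 ± 0.10, adjusted p = 0.0124). Its adjusted p was 0.0690 without IL-33 library 1 and 0.0849 without untreated library 3. Cd40 had 15.9, 16.1 and 15.3 CPM with IL-33, against 14.1, 12.3 and 13.9 CPM without (0.23 ± 0.09, adjusted p = 0.0415). For both genes the groups did not overlap. The call of Cd40 was lost under limma-voom (adjusted p = 0.0571), without the filter (0.120), with only the groups compared (0.0589) and under upper-quartile scaling (0.110). It was also lost without any 1 of the IL-33 libraries (0.0979, 0.0893 and 0.0513) and without untreated library 2 (0.184).

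Among the 8 genes, Cd40 was the one that differed with the Gata3fl/fl label under IL-33. It had 15.9, 16.1 and 15.3 CPM in Gata3fl/fl labelled cells, against 25.2, 29.6 and 25.2 CPM in WT cells, and every labelled library was below every WT one. It was 1.69-fold lower (log2 difference -0.76 ± 0.08, adjusted p = 2.1e-06) and the 1 member called, where 11.3% of all tested genes were called. By p it ranked 75 among all tested genes in that comparison. Cd274 and Pdcd1lg2 overlapped between the genotypes under IL-33, with log2 differences of 0.11 (95% interval -0.01 to 0.24) and -0.25 (-0.84 to 0.34). Icosl differed by -0.34 (adjusted p = 0.0621) and was called under DESeq2 (0.0339), without the filter (0.0162) and without Gata3fl/fl labelled library 1 (0.00413). The log2 differences of Cd86 (-0.23), Lgals9 (-0.16), Cd80 (0.17) and Cd276 (0.36) did not pass the test.

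Whether the IL-33 response of Cd40 differed between these genotypes was tested by the interaction. The difference in log2 response was -0.48 ± 0.12, which did not pass the test (adjusted p = 0.0534), and 0 of the 8 members were called, where 1.22% of all tested genes were. It passed under DESeq2 (adjusted p = 0.0182), without the filter (0.0343), without WT IL-33 library 1 (0.0482) and without WT untreated library 2 (0.0470). The interval for Cd274 was -0.34 to 0.04 and that for Pdcd1lg2 -0.92 to 1.92. Il1rl1 stood at 6.44 ± 1.12 CPM in Gata3fl/fl labelled cells with IL-33 and 15.7 ± 1.14 CPM in WT cells with IL-33, and its part in the Cd40 result was not tested.

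Without cytokine, 1 member was higher and 1 lower in Gata3fl/fl labelled than in WT cells, where 9.85% of all tested genes were called. Cd274 had 51.1, 51.4 and 48.0 CPM in Gata3fl/fl labelled cells, against 43.0, 41.6 and 40.9 CPM in WT cells (log2 difference 0.26 ± 0.06, adjusted p = 0.0114). Its adjusted p was 0.0501 without labelled library 1, 0.0610 without labelled library 2 and 0.0677 without WT library 3. Cd40 had 14.1, 12.3 and 13.9 CPM, against 15.5, 17.5 and 16.0 CPM in WT cells (-0.28 ± 0.09, adjusted p = 0.0405). That call ended when any library except labelled library 1 was left out, with an adjusted p between 0.0511 and 0.208. It was also lost without the filter (0.0714) and with only the groups compared (0.0605). Icosl had 17.4, 17.1 and 17.0 CPM in Gata3fl/fl labelled cells, against 23.4, 19.5 and 21.8 CPM in WT cells, and the groups did not overlap. Its log2 difference of -0.33 ± 0.11 did not pass the test (adjusted p = 0.0701). It passed under DESeq2 (0.0318), limma-voom (0.0392), without the filter (0.0233), with only the groups compared (0.0221) and without WT library 2 (0.0437). The libraries of the 5 other members overlapped, and none of these was called. Lgals9 differed by -0.32 on the log2 scale (adjusted p = 0.175) and passed without the filter (1.41e-05).

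Over the 7 groups the orders of level differed between genes. Cd274 was highest in Gata3fl/fl labelled and WT cells with IL-33, which were not told apart (adjusted p = 0.270), then came WT cells with IL-4, and the 4 remaining groups lay at 41.8 to 50.2 CPM. Pdcd1lg2 was highest with IL-4, followed by WT and Gata3fl/fl labelled cells with IL-33 (adjusted p = 0.647 between them). For Icosl only the place of WT cells with IL-4, below all other groups, stood out between neighbours in the order, with 3.52 CPM against 14.3 CPM in the next group. Cd86 ran from 18.3 CPM in WT cells with IL-33 to 5.24 CPM in WT cells with IL-4. Gata3fl/fl labelled cells with IL-33 stood at 15.6 CPM (adjusted p = 0.159 against WT cells with IL-33 and 0.0294 against untreated WT cells). The untreated and ST2-/- labelled groups lay at 11.7 to 12.8 CPM. Cd40 was highest in WT cells with IL-33 and next in WT cells with IL-4, and no neighbours among the 5 other groups, at 13.4 to 16.3 CPM, differed beyond their spread. Lgals9 led in WT and Gata3fl/fl labelled cells with IL-33 (adjusted p = 0.560 between them), and the 5 groups below them lay at 83.2 to 116.9 CPM. In Cd80 and Cd276 no pair of neighbouring groups differed beyond its spread, the groups running from 5.83 to 7.41 CPM and from 2.94 to 5.06 CPM.

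Other ligands of immune cells, not all of them ligands for T cells, were looked at as a list of 20 genes, of which 16 were tested. With IL-33 in WT cells 7 rose and 2 fell, where 35.4% of all tested genes were called, and with IL-4 5 rose and 7 fell, where 47.6% were. Their median log2 change was 0.38 with IL-33 and -0.21 with IL-4, where the medians of all tested genes were -0.0009 and 0.0048. Tnfsf14, which encodes LIGHT, the ligand of HVEM, stood at 36.8 ± 10.8 CPM with IL-33, 1.12 ± 0.186 CPM with IL-4 and 5.61 ± 0.654 CPM without cytokine. Its log2 change was 2.71 ± 0.17 with IL-33 (adjusted p = 2.3e-11) and -2.34 ± 0.22 with IL-4 (adjusted p = 9.8e-09). Tnfsf4, which encodes OX40 ligand, rose with both, by 1.88 ± 0.37 with IL-33 and 3.26 ± 0.37 with IL-4 (adjusted p = 3.8e-04 and 1.4e-07), at no more than 3.44 CPM in any WT library. Cd200, an inhibitory ligand for myeloid cells, rose by 3.04 ± 0.31 with IL-4 (adjusted p = 2.9e-08) and differed by 0.05 with IL-33 (adjusted p = 0.932).

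**Figure D4:**
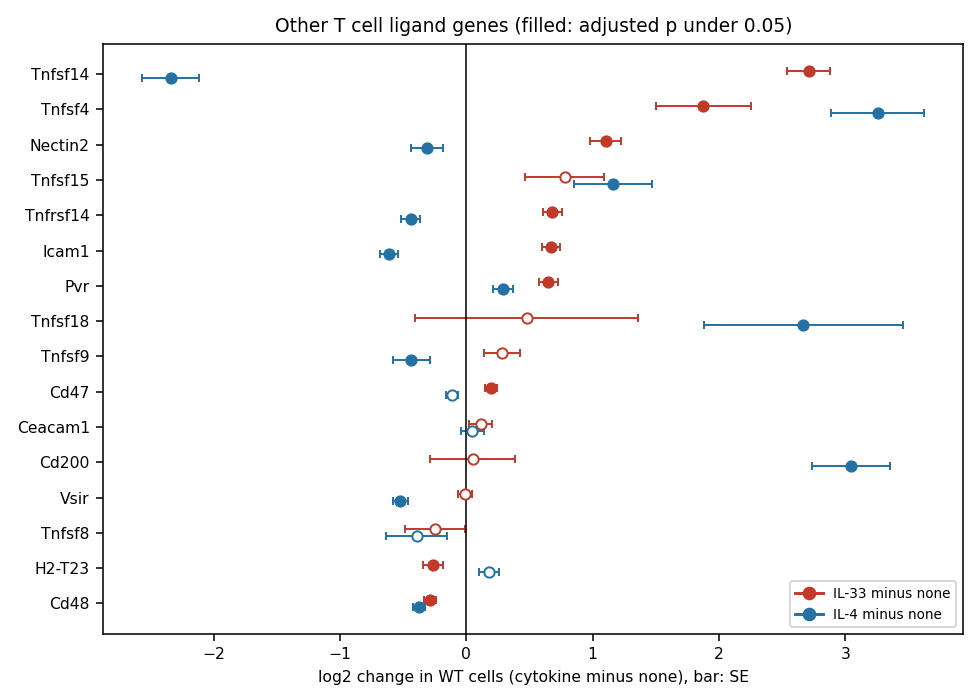
Log2 change in WT cells (points, with SE) of the 16 tested genes among the other immune cell ligands, with IL-33 (red) or IL-4 (blue) against no cytokine. Filled points passed an adjusted p of 0.05. Tnfsf14 lies at 2.71 with IL-33 and -2.34 with IL-4, while Tnfsf4 lies to the right of 0 with both.

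Nectin2 (listed as Pvrl2), a ligand of the receptors DNAM-1 and TIGIT, was lower in Gata3fl/fl labelled than in WT cells with and without IL-33. It stood at 13.3 ± 1.95 CPM in Gata3fl/fl labelled cells with IL-33 and 27.7 ± 4.03 CPM in WT cells with IL-33 (log2 difference -1.05 ± 0.12, adjusted p = 4.0e-06). Without cytokine the log2 difference was -0.42 ± 0.13 (adjusted p = 0.0362), and the interaction of -0.63 ± 0.18 did not pass the test (adjusted p = 0.0832). With IL-33 against no cytokine, 8 of the 16 rose and 3 fell in Gata3fl/fl labelled cells, where 33.4% of all tested genes were called. In ST2-/- labelled cells 0 of the 16 were called, and 0% of all tested genes. Tnfsf14 rose by 3.41 ± 0.17 in Gata3fl/fl labelled cells (adjusted p = 8.1e-13).

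Of 13 genes for receptors or other binding partners of these proteins (Cd40lg encodes the ligand of CD40) 8 were tested. Ctla4, Pdcd1, Cd40lg, Tigit and Cd160 did not pass the filter. With IL-33 in WT cells 2 rose and 2 fell (35.4% of all tested genes called), and with IL-4 2 rose and 3 fell (47.6% called), with median log2 changes of 0.37 with IL-33 and -0.19 with IL-4. Havcr2, which encodes TIM-3, fell by 1.07 ± 0.16 on the log2 scale with IL-33 (adjusted p = 1.1e-05) and differed by 0.09 with IL-4 (adjusted p = 0.668). Cd200r1, the receptor of CD200, rose with IL-33 by 0.34 ± 0.06 (adjusted p = 1.7e-04) and with IL-4 by 0.67 ± 0.06 (adjusted p = 6.6e-09).

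Among 10 genes for handling and signalling of these proteins, 4 rose and 0 fell with IL-33 in WT cells, near the 35.4% called among all tested genes, and 1 rose and 5 fell with IL-4, where 47.6% of all were called. The median log2 changes were 0.11 with IL-33 and -0.15 with IL-4. March1, which encodes a ubiquitin ligase that brings CD86 down from the surface, rose by 0.73 ± 0.09 with IL-33 (adjusted p = 5.7e-07). Traf1, an adaptor of TNF receptor family signalling, rose by 1.04 ± 0.09 with IL-33 (adjusted p = 4.9e-09). Cmtm6, whose product holds PD-L1 at the cell surface, fell by 0.72 ± 0.04 with IL-4 (adjusted p = 6.4e-12), while Traf5 rose by 1.61 ± 0.09 (adjusted p = 2.2e-12).

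A list of 11 genes for transcription factors and regulators was looked at as well, and their part in the ligand results was not tested. Of these, 7 rose and 1 fell with IL-33 in WT cells, where 35.4% of all tested genes were called. With IL-4 4 rose and 6 fell, where 47.6% were called. Their median log2 changes were 0.34 with IL-33 and -0.22 with IL-4. Irf4 rose by 0.63 ± 0.10 with IL-33 (adjusted p = 1.8e-05) and 2.85 ± 0.10 with IL-4 (adjusted p = 3.5e-16). Ciita, the activator of MHC class II genes, rose by 1.42 ± 0.11 with IL-4 (adjusted p = 1.8e-10). Nfkb2, a subunit of NF-kB, rose by 0.54 ± 0.06 with IL-33 (adjusted p = 1.4e-07), and Relb fell by 0.53 ± 0.09 with IL-4 (adjusted p = 5.9e-05).

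The genes whose pattern over the 21 libraries was most like that of each member were found by Pearson's r of log2 CPM among 9706 other protein-coding genes. The libraries share their treatment groups, so these values are descriptions. Cd274 was most like Ctsl, which encodes cathepsin L (r = 0.99). Pdcd1lg2 was most like Olfm1 (0.97) and the macrophage lectin gene Mgl2 (0.96), and Icosl like Igfbp4 (0.99), Fnbp1 (0.99) and the transcription factor gene Maf (0.98). Cd86 was most like Tmem8 (0.97), Cd40 like Dse (0.94) and Lgals9 like Zbp1, which encodes a sensor of Z-form nucleic acids (0.97). The best r was 0.77 for Cd80 and 0.74 for Cd276, the members with the flattest profiles.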

How the data were processed

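Per the labels' protocols, libraries were made with a NEBNext Ultra kit from 1 ug of RNA and read as 150-base pairs. The deposited values are read counts per gene from the authors; per the submitters' processing notes the tools were HISAT2 (2.0.5), HTSeq (0.6.1) and DESeq2 (1.22.2) on GRCm38. Which annotation was counted, and whether strand was used, is not given in the sources used here. Exon lengths came from GENCODE M21, which held 46574 of the 47069 identifiers.

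Counts were fitted with edgeR 4.0.16 in R 4.3.3: filterByExpr, TMM scaling and 1 quasi-likelihood fit of all 21 libraries with a mean per group. P-values were adjusted by the Benjamini-Hochberg method over the 14473 tested genes in each of 11 comparisons, and called at 0.05. In simulated data for a single comparison, with the same dispersion for every gene, the test recovered most of the large planted changes. Small changes, changes in genes of low level and interactions were not planted, so calls of these kinds were not checked. Alternatives were DESeq2 1.42.0, limma-voom (limma 3.58.1), other scalings, no filter, only the groups compared, a replicate block and leaving out each library. Replicate numbers came from the titles. The 8 genes, the other gene lists and the motifs were chosen with earlier results of these data known. All 8 genes are named, and of the other lists up to 4 called genes with the largest log2 changes per comparison.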

Additional observations from a re-analysis of the deposited data

Results flagged for a closer look

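The IL-33 response of 5 genes differed between ST2-/- labelled and WT cells by the interaction test of edgeR. The difference in log2 response was -1.61 for Cd274, -3.96 for Pdcd1lg2, -0.65 for Cd40, -0.60 for Lgals9 and -0.42 for Cd86, where 3 libraries per group were compared. The calls of Lgals9 and Cd86 were lost when single libraries were left out.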

How the results depend on the processing

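Between WT cells with and without cytokine, and between WT IL-33 and IL-4, the number of genes called and of the 8 ligand genes called stayed within 1.5 times its reported value under DESeq2, limma-voom, RLE and upper-quartile scaling, no filter, only the groups compared and the replicate block. Without the filter, 70 genes were called between ST2-/- labelled cells with and without IL-33, against 0 with it. Between untreated ST2-/- labelled and WT cells, DESeq2 called 438 genes and no filter 875, and 1 of the 8 (Lgals9) was called without the filter. Pdcd1lg2 changed sign there to 0.23 under limma-voom. Between Gata3fl/fl labelled and WT cells with IL-33, 2 of the 8 were called under DESeq2 and without the filter, Icosl being added to Cd40. Upper-quartile scaling left 3 of the 8 in the ST2-/- interaction. In the Gata3fl/fl interaction, DESeq2 called 384 genes and no filter 555, and each called 1 of the 8 (Cd40). The cause of these shifts was not tested.

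Deviations of same-numbered libraries from their group means had correlations from -0.04 to 0.11. In 0 of 21 pairs of groups were all of these above 0.1, so the numbers were not taken as pairs. Yet in 41 of 63 cases a library correlated best with its own number among the 3 libraries of the other group. This is a hint from the data, not the design. With the replicate block, 590 genes and 1 of the 8 (Lgals9, adjusted p = 0.00695) were called between untreated ST2-/- labelled and WT cells, and Pdcd1lg2 was at 0.0099 there. Between untreated Gata3fl/fl labelled and WT cells 4 of the 8 were called, Icosl and Lgals9 being added, and with IL-33 2 of the 8, Icosl being added. The Gata3fl/fl interaction had 355 genes and 1 of the 8 (Cd40, adjusted p = 0.0433). Icosl also passed the test for IL-33 against no cytokine with the block, in WT (adjusted p = 0.0408) and Gata3fl/fl labelled cells (0.0327).

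With 1 library left out, calls ran from 54 to 208 genes between untreated ST2-/- labelled and WT cells. Between untreated Gata3fl/fl labelled and WT cells they ran from 658 to 1239 genes and 0 to 2 of the 8, and with IL-33 from 1004 to 1458 genes and 1 to 2 of the 8. The ST2-/- interaction kept 3 to 4 of the 8, and the Gata3fl/fl interaction ran from 52 to 273 genes and 0 to 1 of the 8. Changes that crossed 0 were all uncalled. Log2 changes of Cd276 ran from -0.17 to 0.32 with IL-33 and from -0.25 to 0.10 with IL-4 against no cytokine in WT cells, from -0.091 to 0.40 between the cytokines, from -0.028 to 0.22 with IL-33 in Gata3fl/fl labelled cells, from -0.22 to 0.13 between untreated ST2-/- labelled and WT cells and from -0.26 to 0.24 in the Gata3fl/fl interaction. With IL-33 in ST2-/- labelled cells the ranges were -0.028 to 0.072 for Cd274, -0.0054 to 0.12 for Cd40, -0.012 to 0.097 for Icosl, -0.16 to 0.12 for Lgals9 and -0.36 to 0.20 for Pdcd1lg2. Cd80 ran from -0.11 to 0.26 with IL-33 in Gata3fl/fl labelled cells, from -0.024 to 0.34 between these and WT cells with IL-33 and from -0.29 to 0.090 in that interaction. Cd86 ran from -0.20 to 0.050 between untreated Gata3fl/fl labelled and WT cells. Pdcd1lg2 ran from -0.34 to 0.97 between untreated ST2-/- labelled and WT cells, from -1.28 to 0.23 between untreated Gata3fl/fl labelled and WT cells, from -0.43 to 0.051 between these with IL-33 and from -0.47 to 1.04 in the interaction, where Icosl ran from -0.19 to 0.094.

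Pdcd1lg2 had at most 27 counts in an untreated or ST2-/- labelled library, so its folds there carry wide intervals, while Cd274 and Lgals9 had at least 1574.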

Other observations

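Lgals9 was highest in library 1 of its group in 7 of 7 groups, and Cd86 and Icosl were in 6 of 7. What the number in a library's name stands for was not given in the labels, and no cause was tested.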
